A study of Arabidopsis thaliana with 4 samples.

Results

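The phenylpropanoid, flavonoid and lignin pathway was followed through 41 genes in seedlings of Arabidopsis thaliana, the wild type Col-0 and the mutant bdt1. The genes were taken by identifier, for their known roles, from the 32548 genes of the deposited table. They were chosen with earlier results of these data known, so that counts of them are no test of the pathway. They comprise 8 genes of the general phenylpropanoid steps, 5 early flavonoid genes, 4 flavonol genes, 6 late flavonoid genes, 3 flavonol regulators, 7 anthocyanin regulators and 8 lignin genes. Transcripts were measured by paired-end RNA sequencing of whole seedlings, 10 days old, on plates under 16 h of light and 8 h of darkness. There were 2 libraries of Col-0, labelled wild type, and 2 of bdt1-/-, whose ecotype background is also Col-0. The submitters call them biological replicates. The title and genotype labels read bdt1 and the source label reads btl1-/-. No source used here gives the kind of allele, the number of independent lines or the number of seedlings in a library.

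The pathway starts with phenylalanine. Phenylalanine ammonia-lyase (PAL), cinnamate 4-hydroxylase (C4H) and 4-coumarate:CoA ligase (4CL) turn it into an activated acid that feeds either lignin, the polymer that stiffens xylem walls, or the flavonoids. Chalcone synthase (CHS) opens the flavonoid branch, which in seedlings ends in flavonols, colourless sunscreens under the control of MYB11, MYB12 and MYB111, or in anthocyanins, red pigments whose late enzymes are switched on by complexes of a MYB, a bHLH and the WD40 protein TTG1.

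In bdt1, PAL3, 1 of the 4 genes for PAL, and COMT1, a methyltransferase of lignin and flavonol synthesis, fell. No tested gene of the pathway was called higher. The late flavonoid genes and the anthocyanin regulators had the most negative median log2 fold changes of the branches, but none of them passed the test. In the late genes the Col-0 libraries lay far apart. Over the 7 regulators the median log2 ratio of Col-0 replicate 2 to replicate 1 was 0.37. It was 0.98 in TT8 and 0.92 in MYBL2, against 0.09 in TTG1 and 0.12 in GL3. The entry enzymes PAL1, PAL2 and C4H differed by -12.1%, -10.3% and -12% in the mean without passing, and CHS and CHI had nearly the same mean in both genotypes. A gene was tested where its normalised counts averaged 1 or more, which held for 39 of the 41. The test was limma on log2(normalised count + 1), with p-values adjusted by the Benjamini-Hochberg method over all 23256 tested genes and a threshold of 0.05. It called 2 of the 39 lower and 0 higher, beside 0.856% and 1.2% of all tested genes, and with edgeR on recovered counts the counts were also 2 and 0. At an unadjusted p under 0.05, 14 were lower and 1 higher, beside 7.76% and 8.61%. Both bdt1 libraries lay below both Col-0 libraries in 21 genes and above them in 2, beside 23.7% and 25.2%. In these bulk samples, fewer cells of a type and less RNA per cell cannot be told apart.

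The recovered totals were 22914893 to 27435729 reads per library. AT4G11560, which background knowledge and not the annotation ties to the name BDT1, was at 1135 and 1117 normalised counts in Col-0 and at 313 and 324 in bdt1. Leaf markers summed to 616076 and 634877 in Col-0 and to 548291 and 553692 in bdt1, and root markers to 384 and 418 against 425 and 479. Seed markers summed to at most 23.1 and flower markers to at most 51.3 in any library, the latter 20.1 and 21.1 in Col-0 and 30.3 and 51.3 in bdt1. The part of tissue make-up in the results below was not tested. All levels below are normalised read counts, and each mean is given with its SD over 2 libraries. With 2 libraries against 2, an exact permutation test of a single gene cannot give a two-sided p below 0.333, so that the test rests on the spread pooled across genes.

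PAL catalyses the committed step from phenylalanine to cinnamate. PAL3 (AT5G04230, chromosome 5 from 1160569 to 1163957, plus strand, TAIR10.1) was at 898 and 837 in Col-0 and at 545 and 536 in bdt1. Both bdt1 libraries were thus well below both Col-0 libraries, and libraries of 1 genotype lay close together. From a mean of 868 ± 43.8, PAL3 fell to 541 ± 6.41, a log2 fold change of -0.68 (SE 0.08, adjusted p = 0.0044 with limma). Without the mean-variance trend limma did not call PAL3 (adjusted p = 0.14). Without bdt1 replicate 1 or replicate 2 the limma call was lost at nearly the same log2 fold changes, -0.69 and -0.67, as were all limma calls of the series. The edgeR quasi-likelihood test on recovered counts kept the call in both cases (adjusted p = 0.00057 and 0.001).

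**Figure D1:**
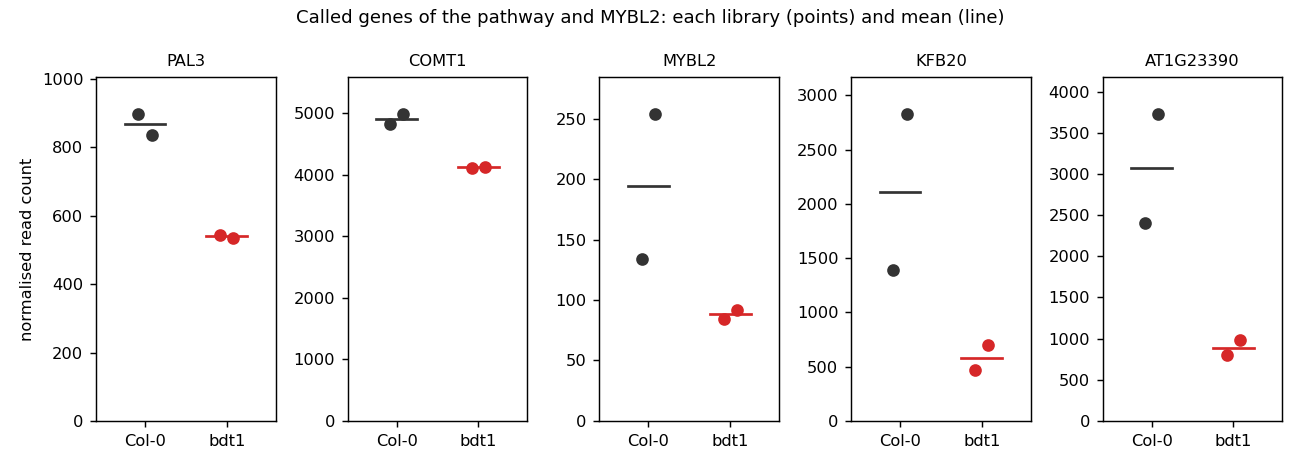
Normalised read count (y axis, from 0) of PAL3, COMT1, MYBL2 and 2 kelch F-box genes, KFB20 and AT1G23390, in the 2 Col-0 and 2 bdt1 libraries (points) with the mean of each genotype (line). All 5 lie lower in both bdt1 libraries; the Col-0 libraries are close together for PAL3 and COMT1 and apart for the other genes, MYBL2 being at 134 and 254.

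The other genes for the enzyme did not pass. PAL1, the most abundant of the 4, was at 8360 and 8882 in Col-0 and at 7187 and 7971 in bdt1, a log2 fold change of -0.19 (95% interval -0.33 to -0.04, limma adjusted p = 0.2). PAL2 was at 4356 and 4655 against 3876 and 4206, a log2 fold change of -0.16 (95% interval -0.30 to -0.02, adjusted p = 0.26). In both genes the bdt1 libraries were the lower ones without overlap. PAL4 was at 466 and 508 against 514 and 462, overlapping, with a log2 fold change of 0.00 (95% interval -0.21 to 0.22). Per kilobase of merged exons the mean levels in Col-0 were 2941 for PAL1, 1561 for PAL2, 333 for PAL3 and 179 for PAL4, so that PAL3 was well below PAL1 and PAL2 on this scale. In bdt1 they were 2586, 1400, 207 and 179. Sequence shared between the copies was short: PAL1 and PAL2 shared 31 runs of 50 bases, 1.09% and 1.11% of their runs, and neither PAL3 nor PAL4 shared any with a listed gene.

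The stretches upstream of the 4 PAL genes and of COMT1 are shown because PAL3 and COMT1 were the genes called, and because the values of the 4 PAL copies differ. Each runs from 250 bases before the annotated gene start to the base before it, 5′ to 3′ on the gene's strand (RefSeq, TAIR10.1). Capitals mark the G-box, spelled CACGTG, and the core of that box, spelled ACGT, which every G-box contains. The 3 AC elements were searched as well, on both strands like the others. The first is spelled ACCTACC, the second differs from it and is spelled ACCAACC, and the last is spelled ACCTAAC.
PAL1 (chr2:15560756-15561005, minus strand): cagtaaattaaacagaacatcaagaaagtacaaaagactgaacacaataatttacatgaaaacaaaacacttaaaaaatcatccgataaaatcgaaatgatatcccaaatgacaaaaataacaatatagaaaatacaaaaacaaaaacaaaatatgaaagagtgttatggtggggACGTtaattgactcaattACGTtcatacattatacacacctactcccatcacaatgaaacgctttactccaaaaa
PAL2 (chr3:19747115-19747364, minus strand): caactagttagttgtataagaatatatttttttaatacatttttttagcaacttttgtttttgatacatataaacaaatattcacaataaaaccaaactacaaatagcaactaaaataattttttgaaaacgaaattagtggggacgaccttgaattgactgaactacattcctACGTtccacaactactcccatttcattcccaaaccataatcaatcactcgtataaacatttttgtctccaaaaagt
PAL3 (chr5:1160319-1160568, plus strand): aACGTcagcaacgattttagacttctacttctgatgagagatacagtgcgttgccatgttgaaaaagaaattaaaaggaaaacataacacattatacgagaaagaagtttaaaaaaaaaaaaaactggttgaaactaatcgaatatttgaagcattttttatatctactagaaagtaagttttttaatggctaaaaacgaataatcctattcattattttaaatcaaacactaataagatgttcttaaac
PAL4 (chr3:3203738-3203987, plus strand): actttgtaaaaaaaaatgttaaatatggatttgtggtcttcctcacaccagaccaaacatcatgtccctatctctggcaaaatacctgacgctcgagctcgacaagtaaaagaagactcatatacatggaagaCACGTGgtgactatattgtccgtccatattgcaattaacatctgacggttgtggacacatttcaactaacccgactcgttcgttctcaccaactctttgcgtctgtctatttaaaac
COMT1 (chr5:21981652-21981901, plus strand): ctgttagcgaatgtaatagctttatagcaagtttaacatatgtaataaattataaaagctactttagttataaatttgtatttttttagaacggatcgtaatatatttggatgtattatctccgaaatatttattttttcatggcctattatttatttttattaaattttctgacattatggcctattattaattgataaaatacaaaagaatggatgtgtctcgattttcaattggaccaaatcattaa
PAL4 held a G-box and the 3 other PAL windows held ACGT cores outside a G-box, in PAL1 and PAL2 near the gene start and in PAL3 at the far end. The COMT1 window held none of these letters. Over the windows of all 27443 protein-coding genes, 6.49% held a G-box, 44.1% an ACGT core and 6.12% any of the 3 AC elements. Among the 41 genes the shares were 22% (9 genes), 56.1% (23 genes) and 26.8% (11 genes). The AC elements, known as binding sites of MYB factors, were found in the windows of 4CL2, 4CL3, CHIL, AT1G06000, AT4G14090, TT8, HCT, C3H, CCoAOMT1, CCR1 and CAD5. These matches describe the windows, and no binding was measured.

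C4H, the cytochrome P450 after PAL, was at 7601 and 7891 in Col-0 and at 6558 and 7070 in bdt1, without overlap. Its log2 fold change was -0.19 (95% interval -0.31 to -0.06, limma adjusted p = 0.16), and it passed without Col-0 replicate 1 (-0.21, adjusted p = 0.047). Of the 4CL genes, 4CL1, tied mainly to lignin, was at 5180 ± 102 and 4895 ± 5.41. 4CL2 was at 837 ± 54.6 and 861 ± 120, and 4CL3, tied to flavonoids, at 1430 ± 241 and 1313 ± 107. None of the 3 passed, and only 4CL1 had no overlap between genotypes. Over the 8 general genes the median log2 fold change was -0.14, beside 0.00 over all tested genes.

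The lignin genes showed small differences with narrow errors. COMT1 (AT5G54160, chromosome 5 from 21981902 to 21984399, plus strand) was at 4830 and 4985 in Col-0 and at 4108 and 4125 in bdt1. The 2 bdt1 libraries were nearly equal and both lay below Col-0. COMT1 fell 1.19-fold, a log2 fold change of -0.25 (SE 0.05, adjusted p = 0.046 with limma). The call stood near the threshold. It was not made with a pseudocount of 0.1, without the filter on low counts or without the mean-variance trend. It was lost without Col-0 replicate 2 (-0.23, adjusted p = 0.058) and without either bdt1 library, there also with edgeR (adjusted p = 0.24 and 0.22), and after quantile normalisation (-0.21, adjusted p = 0.073), while the log2 fold change stayed between -0.28 and -0.21 in every setting tried.

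F5H, the hydroxylase that leads to syringyl lignin and sinapate esters, was at 2580 and 2903 in Col-0 and at 2391 and 2427 in bdt1, a log2 fold change of -0.18 (95% interval -0.34 to -0.03, limma adjusted p = 0.22). CAD5, which makes the lignin alcohols together with CAD4, was the only lignin gene higher in both bdt1 libraries, at 1226 and 1343 in Col-0 and at 1572 and 1436 in bdt1. Its log2 fold change of 0.23 (95% interval 0.06 to 0.40) did not pass (adjusted p = 0.18). CAD4 was at 4044 ± 132 and 4040 ± 53.1, with an interval of -0.12 to 0.12. The difference between the 2 genes was not tested.

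HCT and C3H, which act on the shikimate ester before the first methylation, were at 4827 ± 93.9 and 4518 ± 130, and at 2313 ± 30.6 and 2316 ± 113. CCoAOMT1, the methyltransferase of that step, was at 8878 ± 553 and 8216 ± 101. CCR1, the reductase that commits to lignin, was at 804 ± 73.9 and 721 ± 2.91. None of the 4 passed. Over the 8 lignin genes the median log2 fold change was -0.10. The test called 1 lower and 0 higher, beside 0.856% and 1.2% of all tested genes. Without overlap, 5 lay below and 1 above Col-0, beside 23.7% and 25.2%.

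**Figure D2:**
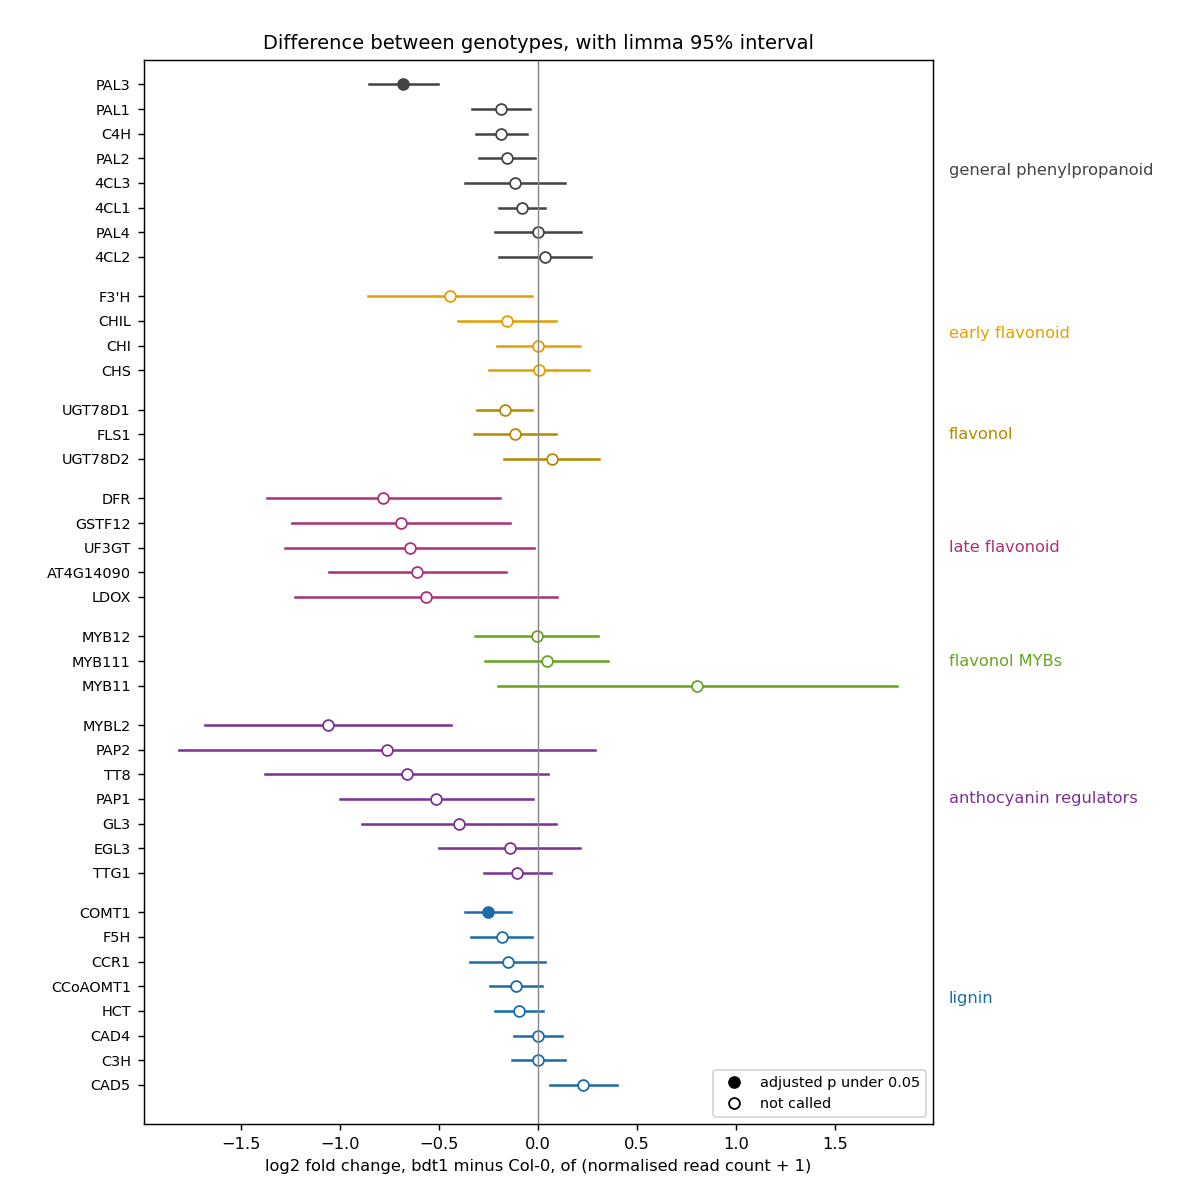
Log2 fold change of each tested gene, bdt1 minus Col-0, on the log2(normalised count + 1) scale (x axis), with the limma 95% interval (lines), grouped by branch; filled points passed the adjusted p of 0.05. PAL3 and COMT1 are the filled points, the late flavonoid genes and MYBL2 lie far to the left with wide intervals, and the lignin genes lie near 0 with narrow ones; BAN, at about 1 read, and the 2 genes listed at 0 are left out.

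CHS and CHI, the first flavonoid steps, had similar means in both genotypes. CHS, the entry enzyme and the most abundant of the tested members per kilobase, was at 9556 and 12308 in Col-0 and at 10187 and 11597 in bdt1. The bdt1 values lay between the Col-0 values, and the log2 fold change was 0.00 (95% interval -0.25 to 0.26). It was -0.18 without Col-0 replicate 1 and 0.19 without Col-0 replicate 2, where edgeR called CHS lower and higher. CHI, the isomerase that closes the ring, was at 1186 and 1380 against 1200 and 1366, with an interval of -0.21 to 0.21. CHIL, a protein related to CHI that promotes the CHS reaction, was at 1959 and 2507 against 1884 and 2098, overlapping (log2 fold change -0.16). F3'H, which adds the second hydroxyl group of the B ring, differed more. It was at 508 and 783 in Col-0 and at 424 and 505 in bdt1, so that bdt1 replicate 2 lay just under Col-0 replicate 1. Its log2 fold change of -0.45 (95% interval -0.86 to -0.03) did not pass (limma adjusted p = 0.27), and it was -0.14 without Col-0 replicate 2 and -0.76 without Col-0 replicate 1 (adjusted p = 0.0052).

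The flavonol genes differed little. FLS1, flavonol synthase, was at 2900 and 3358 in Col-0 and at 2670 and 3107 in bdt1, overlapping, with a log2 fold change of -0.12 (95% interval -0.32 to 0.09). UGT78D1, the 3-O-rhamnosyltransferase, was at 2947 and 3067 against 2569 and 2790, without overlap (-0.17, limma adjusted p = 0.22). UGT78D2, the 3-O-glucosyltransferase that also acts on anthocyanidins, was at 1501 and 1856 against 1634 and 1877 (0.07, adjusted p = 0.79). Of the flavonol MYBs, MYB12 was at 175 and 162 against 165 and 170, and MYB111 at 320 and 301 against 281 and 364. MYB11, with 8 and 14 recovered reads in Col-0 and 14 and 25 in bdt1, had a log2 fold change of 0.80 (95% interval -0.20 to 1.81, adjusted p = 0.41). At this depth a change of MYB11 in either direction was not resolved.

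The late enzymes turn dihydroflavonols into anthocyanins. DFR, the reductase at the branch point, was at 966 and 1857 in Col-0 and at 676 and 896 in bdt1. Col-0 replicate 2 stood far above the other 3 libraries, and bdt1 replicate 2 lay just under Col-0 replicate 1, so the genotypes did not overlap. The log2 fold change was -0.78 (95% interval -1.37 to -0.19, limma adjusted p = 0.18), and -0.31 without Col-0 replicate 2. It was -1.25 without Col-0 replicate 1, -0.58 without bdt1 replicate 1 and -0.99 without bdt1 replicate 2. The edgeR test on all 4 libraries did not call DFR (adjusted p = 0.12). LDOX, anthocyanidin synthase, was at 838 and 1659 against 642 and 987, overlapping (-0.57, adjusted p = 0.38). UF3GT, annotated as the xylosyltransferase of anthocyanins, was at 237 and 441 against 171 and 248, also overlapping (-0.65, adjusted p = 0.29). AT4G14090, the anthocyanidin 5-O-glucosyltransferase, was at 422 and 630 against 290 and 392, without overlap (-0.61, adjusted p = 0.17). GSTF12, also known as TT19, which carries anthocyanins towards the vacuole, was at 463 and 801 against 316 and 447, without overlap (-0.69, adjusted p = 0.2). BAN, the anthocyanidin reductase of the seed coat, had at most 2 recovered reads in any library.

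Of the 7 regulators of the anthocyanin genes, 6 were highest in Col-0 replicate 2, beside 6003 of all 23256 tested genes, and none passed. MYBL2, a repressor of anthocyanin synthesis, was at 134 and 254 in Col-0 and at 84.3 and 92 in bdt1. The bdt1 libraries were close together and below both Col-0 libraries. Its log2 fold change of -1.06 (SE 0.27, 95% interval -1.68 to -0.44), the largest in size among the tested members, missed the threshold (limma adjusted p = 0.1; edgeR 0.064). DESeq2 on the recovered counts called it (-1.14, adjusted p = 0.021). It was -0.60 without Col-0 replicate 2 and -1.52 without Col-0 replicate 1 (limma adjusted p = 0.0018).

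PAP1, the MYB activator of anthocyanin genes, was at 90.1 and 117 in Col-0 and at 65.4 and 78.4 in bdt1, without overlap (log2 fold change -0.51, limma adjusted p = 0.28). Its close copy PAP2 was at 11.7 and 17.5 against 9.45 and 6.84 (-0.76, adjusted p = 0.46). The bHLH partner TT8 was at 65.1 and 129 against 53.8 and 61.7 (-0.66, adjusted p = 0.34). In all 3 genes both bdt1 libraries were below both Col-0 libraries, in TT8 by a small step. GL3 and EGL3, bHLH partners that also act in trichomes, were at 70.6 ± 4.07 and 53.3 ± 0.827, and at 263 ± 57 and 235 ± 1.49. TTG1, the shared WD40 protein, was at 953 ± 40.9 and 887 ± 48.1, and none of these 3 passed.

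**Figure D3:**
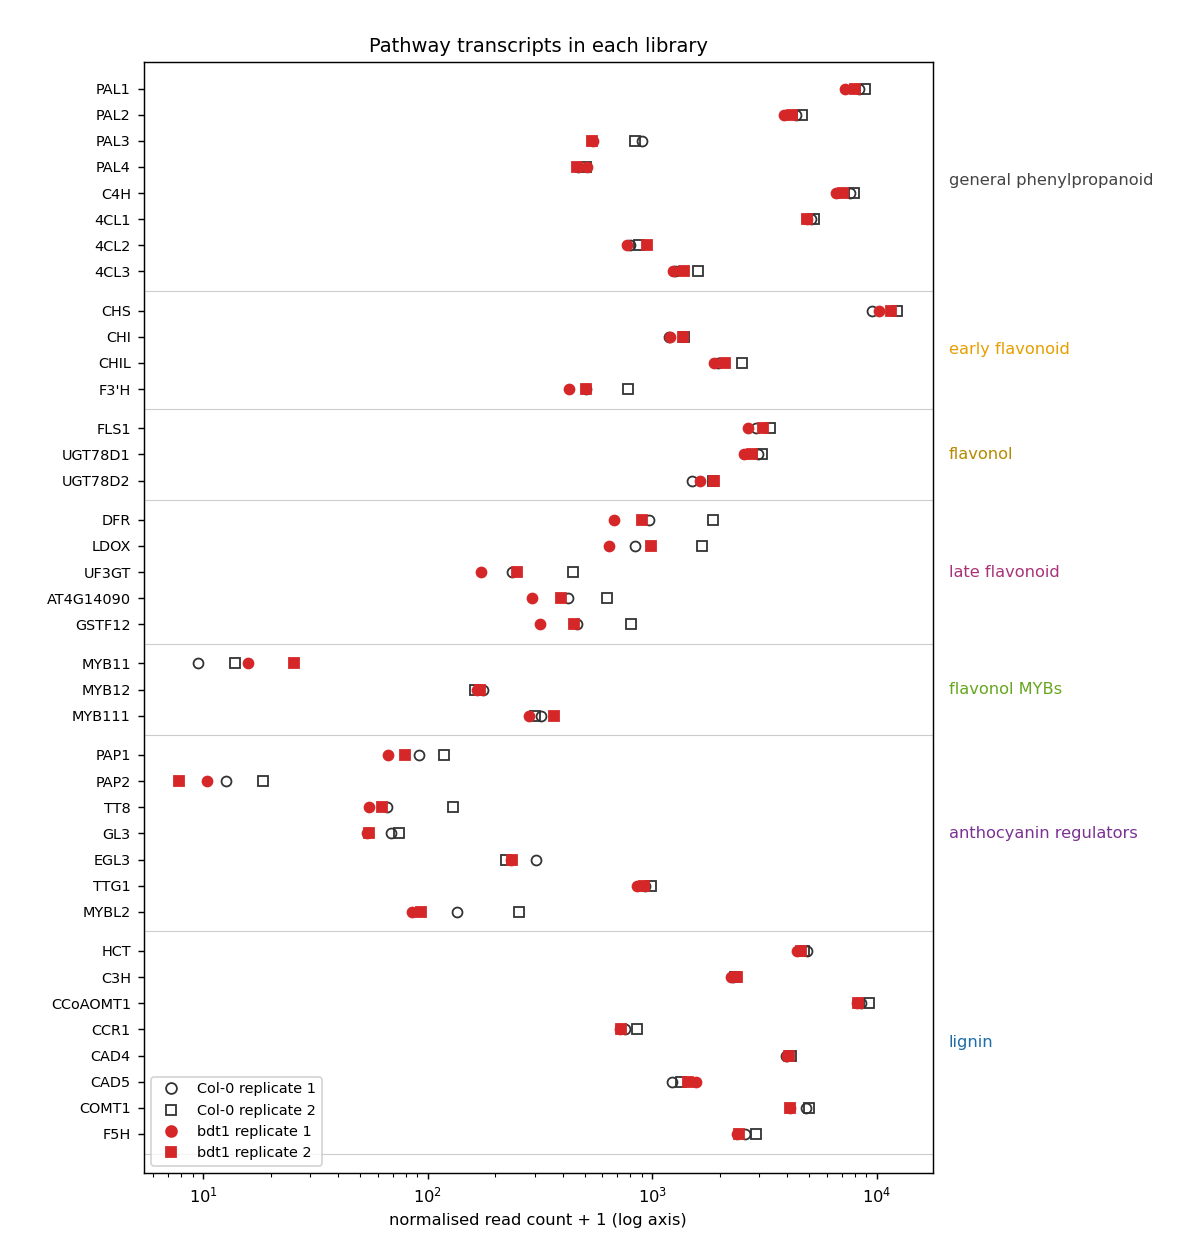
Normalised read count + 1 (x axis, log scale) of the tested genes except BAN in each library, open for Col-0 and filled for bdt1, circles for replicate 1 and squares for replicate 2. In the late flavonoid genes the open square, Col-0 replicate 2, stands to the right of the other 3 libraries, while in most general and lignin genes all 4 symbols nearly coincide.

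How far the replicates of 1 genotype lay apart differed by branch. In the 5 late flavonoid genes other than BAN, Col-0 replicate 2 exceeded replicate 1 by a median of 0.90 on the log2 scale, and bdt1 replicate 2 exceeded replicate 1 by 0.50. In the 8 lignin genes these medians were 0.10 and 0.02, and over all tested genes 0.00 and 0.00. All 5 late genes were highest in Col-0 replicate 2 and lowest in bdt1 replicate 1. The median difference between genotypes of these 5 genes was -0.65, which is smaller than the median step between the 2 Col-0 libraries. It was -0.30 without Col-0 replicate 2, -1.09 without Col-0 replicate 1, -0.39 without bdt1 replicate 1 and -0.91 without bdt1 replicate 2.

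Without Col-0 replicate 1 limma called 14 of the pathway's genes lower, which were PAL3, COMT1 and 12 more. Among the latter, given by log2 fold change, were DFR (-1.25), UF3GT (-1.10), GSTF12 (-1.09), LDOX (-1.06), AT4G14090 (-0.90) and TT8 (-1.15), and beside MYBL2, F3'H and C4H also CHIL (-0.33), F5H (-0.27) and CCoAOMT1 (-0.17). Over all genes that setting called 540 higher and 776 lower, so that it made more calls in the whole table as well. Without Col-0 replicate 2 limma called PAL3 alone among the 39. The log2 fold changes were then -0.31 for DFR, -0.20 for UF3GT, -0.30 for GSTF12, -0.07 for LDOX, -0.32 for AT4G14090 and -0.17 for TT8. The median of the 7 anthocyanin regulators was -0.70 without Col-0 replicate 1 and -0.34 without Col-0 replicate 2.

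**Figure D4:**
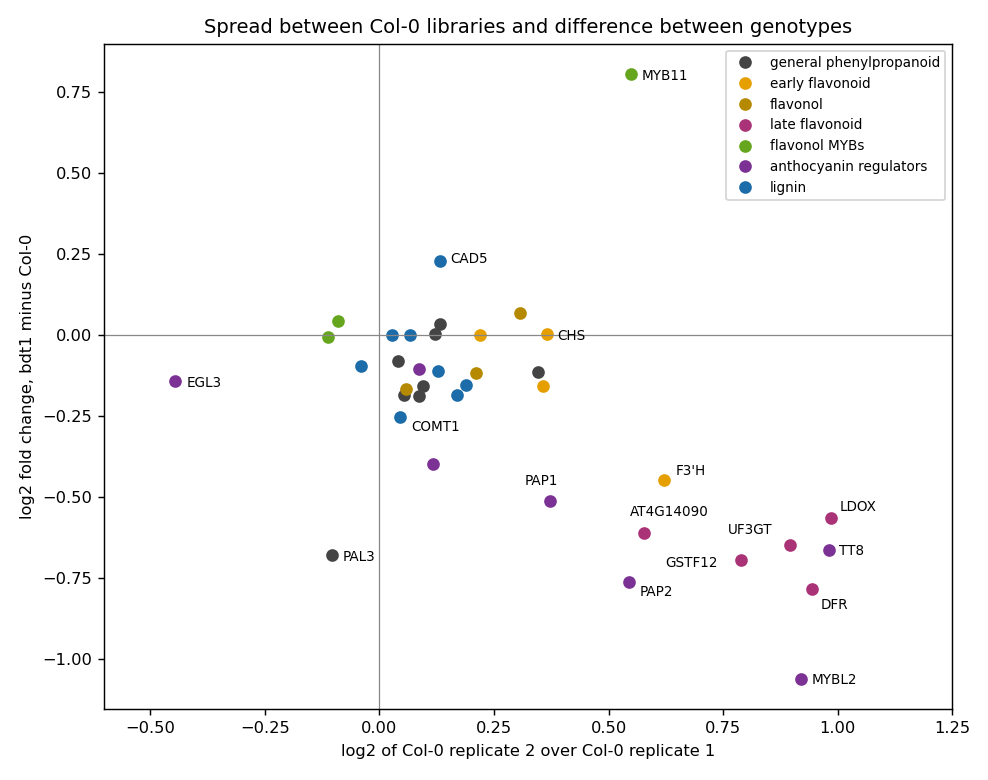
Log2 ratio of Col-0 replicate 2 to Col-0 replicate 1 (x axis) against the log2 fold change of bdt1 over Col-0 (y axis) for the tested genes except BAN, coloured by branch. The late flavonoid genes, TT8 and MYBL2 lie at the lower right, low in bdt1 and apart between the Col-0 libraries, while PAL3 lies low at -0.68 with Col-0 replicate 2 slightly under replicate 1; both axes use the Col-0 libraries.

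Side by side, the median log2 fold change was -0.65 in the 5 late flavonoid genes, -0.51 in the 7 anthocyanin regulators, -0.14 in the general genes, -0.12 in the 3 tested flavonol genes, -0.10 in the lignin genes, -0.08 in the 4 tested early flavonoid genes and 0.04 in the flavonol MYBs. The order of these branches was not tested, and the medians with the greatest size belong to genes with the widest errors, a median SE of 0.26 in the late genes against 0.06 in the lignin genes. Over the 39 tested genes 30 had a negative log2 fold change, beside 11456 of all 23256 tested genes, and 9 a positive one. The negative ones were 33 with TMM scaling and 29 with quantile normalisation.

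Both genes that could not be tested were listed at 0 reads in all 4 libraries. These were F3H (AT3G51240, chromosome 3 from 19025192 to 19026872, plus strand), the hydroxylase between CHI and FLS1, and AT1G06000 (chromosome 1 from 1820308 to 1821894, minus strand), annotated as a flavonol 7-O-rhamnosyltransferase. Their neighbours in the pathway, CHI, CHS and FLS1, were read at 1186 or more in every library. Exons of another listed gene on the opposite strand cover 93.8% of the exon bases of F3H and 99.6% of those of AT1G06000. These are the long non-coding RNA genes AT3G51238 (chromosome 3 from 19025110 to 19026779) and AT1G06002 (chromosome 1 from 1820254 to 1821887), and both were listed at 0 too.

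The same held across the table. Of 539 protein-coding genes with over 90% of their exon bases overlapped by other listed genes, 504 (93.5%) were listed at 0 in all libraries, beside 3093 of 19961 (15.5%) without any overlap. The share was 51.8% at an overlap above 75% to 90% and 25.2% above 50% to 75%. Whether F3H and AT1G06000 were transcribed cannot be read from the zeros, and whether reads in overlaps were left out of the counting was not tested. Of the tested members, CCR1 was overlapped over 77.2% of its exon bases and AT4G14090 over 27.1%, and what their levels cover was not tested. Another 6 members were overlapped over 0.117% to 9.85%, and 31 not at all. The 9.85% was that of GSTF12, overlapped by AT5G17230 on the opposite strand. AT5G17230 was at 11100 and 12100 in Col-0 and at 9950 and 10500 in bdt1. Whether its reads add to the level of GSTF12 was not tested.

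**Figure D5:**
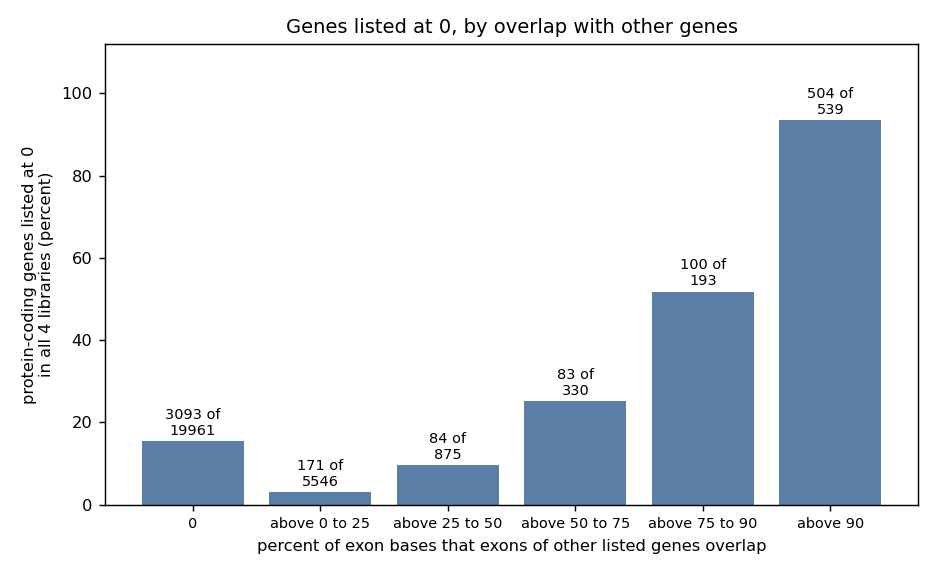
Share of protein-coding genes listed at 0 in all 4 libraries (y axis, percent) by the percent of their exon bases that exons of other listed genes overlap in TAIR10.1 (x axis), with the number listed at 0 and the number of genes above each bar. The share is 15.5% with no overlap and 93.5% above 90%, the class that holds F3H and AT1G06000.

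A further 63 genes tied to the pathway were looked up, of which 52 could be tested. Among them 2 were called lower and 0 higher, beside 0.856% and 1.2% of all tested genes. Both encode kelch repeat F-box proteins. The 63 genes were chosen with earlier results of these data known, so these calls are no test of the pathway. KFB20 (AT1G80440), annotated as an F-box protein that targets PAL and also type-B response regulators of cytokinin signalling, was at 1394 and 2829 in Col-0 and at 467 and 696 in bdt1. It fell 3.48-fold, a log2 fold change of -1.80 (SE 0.29, adjusted p = 0.022 with limma). AT1G23390, annotated only as a kelch repeat F-box protein, was at 2404 and 3728 against 805 and 977, and fell 3.37-fold, a log2 fold change of -1.75 (SE 0.18, adjusted p = 0.0032). In both genes every bdt1 library was below every Col-0 library, and Col-0 replicate 2 was the highest library, as in the late flavonoid genes. Without Col-0 replicate 2 the log2 fold changes were -1.29 and -1.44, still called by limma. Without either bdt1 library limma called neither, at -1.51 to -2.09 for KFB20 and -1.61 to -1.89 for AT1G23390, while edgeR called both genes in all 4 such fits. KFB01, at 365 and 421 against 362 and 282, did not pass (-0.29, adjusted p = 0.34). KFB50 and KMD3 are overlapped over 100% of their exon bases, and were at 0.0507 to 7.87 and at 0.

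The remaining groups held no called gene. Of the regulators and decorating enzymes of anthocyanins, 11 were tested. The nitrate-responsive repressors LBD38 and LBD37 were at 1587 ± 57.3 and 1279 ± 65.9, and at 4124 ± 405 and 3364 ± 310, without overlap (limma adjusted p = 0.057 and 0.13). The malonyltransferase gene 5MAT, annotated as expressed together with AT4G14090, was at 212 and 410 in Col-0 and at 156 and 199 in bdt1 (log2 fold change -0.74, adjusted p = 0.23). Without Col-0 replicate 1 limma and edgeR called all 3 lower. Without Col-0 replicate 2 limma called none of them and edgeR called LBD37 and LBD38 (adjusted p = 0.0025 and 0.006). Without bdt1 replicate 2 edgeR called LBD37 and 5MAT (adjusted p = 0.026 and 0.011), and without bdt1 replicate 1 none of the 3. In the monolignol and lignin polymerisation group, 10 were tested with a median log2 fold change of 0.08. Its gene of smallest p was the laccase LAC17, at 404 and 412 in Col-0 and at 354 and 370 in bdt1 (-0.17, adjusted p = 0.4). In the sinapate group, 7 were tested with a median of -0.09. SNG1, the sinapoyltransferase that makes sinapoylmalate, was at 3986 and 4687 against 5289 and 4670 (0.20, adjusted p = 0.3).

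The 9 tested factors of lignin and secondary walls lay between -0.27, for MYB20, and 0.37. The repressor MYB7 was at 176 and 197 in Col-0 and at 239 and 223 in bdt1 (0.31, adjusted p = 0.29). ATR2, a reductase that serves the cytochromes P450 of the pathway, was at 4083 and 4247 against 3520 and 3905 (-0.17, adjusted p = 0.24). Of 9 seed coat genes of proanthocyanidin synthesis 4 were tested, and the lowest p belonged to TTG2, at 158 and 218 against 115 and 143 (-0.53, adjusted p = 0.23). In the 3 genes the bdt1 libraries did not overlap with Col-0, higher in MYB7 and lower in ATR2 and TTG2. Over all 52 tested genes the median log2 fold change was -0.05, with 17 below and 9 above Col-0 without overlap, beside 23.7% and 25.2% of all tested genes.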

How the data were processed

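Paired-end RNA sequencing of Arabidopsis seedlings gave 2 Col-0 and 2 bdt1 libraries. Per the submitters' processing notes, HISAT2 2.2.0 and edgeR were used; the build is named there as TAIR10, and no source used here names the counter, the annotation or any use of strand. The authors deposited normalised counts, here called signal: per-gene values adjusted to 1 common library size. They were inverted to whole reads, and 100% of values came out whole within 0.001 reads, at a dispersion of 0.00544. The unit differed from raw counts, so the main test was limma 3.58.1 with a mean-variance trend on log2(signal + 1), over genes with a mean of at least 1 (23256 of 32548), at a Benjamini-Hochberg adjusted p under 0.05. Log2 fold changes on this scale understate the change of low genes. Alternatives were TMM and quantile scaling, other pseudocounts and filters, no trend, a replicate block, each library left out, and edgeR 4.0.16 and DESeq2 1.42.0 on the recovered reads; the edgeR fits without 1 library were added after seeing the data. Nothing says how many cultures the libraries came from, so p-values measure the spread between these libraries. All 32548 IDs matched RefSeq TAIR10.1, which gave names, coordinates, exon overlaps and promoters. The main limma fit and the recovery of whole reads were checked on simulated counts, drawn at a dispersion of 0.00544 for every gene. That check did not cover genes that vary more between libraries than this setting. The other fits were not checked in this way. The genes and lists were chosen with earlier results of these data known. All 41 genes are named, with values per library for the called ones and the 3 of smallest p in each branch; of the other pathway genes, the called ones and up to 3 of smallest p in a group.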

Additional observations from a re-analysis of the deposited data

How the results depend on the processing

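Over all genes 280 were higher and 199 lower, and edgeR called 350 and 263 and DESeq2 259 and 226, with 2 and 3 pathway genes lower, MYBL2 being the third. A pseudocount of 0.1 left 123 lower, 1 of them a pathway gene, which was PAL3; quantile normalisation and no filter also left 1. Without the trend 42 were higher and 6 lower, with 0 pathway genes, beside 1888 and 1049 genes at an unadjusted p under 0.05. With a replicate block 901 were higher and 917 lower, 1 and 11 of them pathway genes. Among the pathway genes lower with the block were DFR, LDOX, UF3GT, AT4G14090, GSTF12, F3'H and MYBL2. Over all 23256 tested genes, same-numbered libraries did not deviate together (r = -0.0116). The replicate numbers were thus not shown to pair the libraries. In the pathway, replicate 2 exceeded replicate 1 in 33 of 39 tested genes in Col-0 and in 34 in bdt1. Over all tested genes these numbers were 11584 and 11932. Pairing within the pathway was not tested.

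Leaving out 1 library gave 0 to 1221 genes higher and 0 to 1275 lower, and 0 to 3 and 0 to 20 pathway genes. In those fits the lone library of a genotype is assumed to vary like the other genotype. Without bdt1 replicate 1 limma called 0 genes, with 916 higher and 657 lower at an unadjusted p under 0.05, and edgeR called 571; without bdt1 replicate 2 the counts were 0, 925, 686 and 659. Without Col-0 replicate 1 limma called 540 higher and 776 lower, 14 of the latter pathway genes. With edgeR, 894 were higher and 1275 lower without Col-0 replicate 1, with 20 pathway genes lower, and 1221 and 1270 without Col-0 replicate 2, with 3 pathway genes higher and 5 lower. They were 317 and 254 without bdt1 replicate 1, with 3 pathway genes lower, and 308 and 351 without bdt1 replicate 2, with 8.

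Leaving aside the edgeR fits without 1 library for all but PAL3 and COMT1, of the pathway genes' log2 fold changes under alternatives 485 kept direction and call, 23 gained a call, 12 lost one and 30 changed sign. With TMM the changed signs were those of PAL4 (-0.001), CHI (-0.0014) and C3H (-0.00166). With edgeR they were CHS (-0.00529) and CHI (-3.16e-05), with DESeq2 CHS (-0.00584) and CHI (-0.000666), and with quantile normalisation CAD4 (0.0398). With 1 library left out, values ranged from -0.0748 to 0.0782 for PAL4, -0.109 to 0.178 for 4CL2, -0.288 to 0.0578 for 4CL3, -0.179 to 0.186 for CHS, -0.108 to 0.111 for CHI, -0.334 to 0.0216 for CHIL, -0.084 to 0.222 for UGT78D2, -0.821 to 0.348 for BAN, -0.0632 to 0.0485 for MYB12, -0.145 to 0.23 for MYB111, -0.366 to 0.079 for EGL3, -0.0486 to 0.0507 for C3H and -0.0343 to 0.0322 for CAD4.

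The cause of these differences was not tested. BAN, PAP2 and MYB11 had few reads, and their intervals were wide.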
